A study of Mus musculus with 3 samples.

Results

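The fatty acid desaturases and elongases Fads1, Fads2, Fads3, Fads6, Elovl1, Elovl5, Elovl6, Elovl7, Scd1 and Scd2 were described, 10 genes of the 42258 in the tables, taken by gene symbol and not by their values. RNA was sequenced from the gastrocnemius and plantaris, calf muscles of mainly fast fibres, of male mice in 3 groups, and RNA was pooled within a group so that each group is 1 library. Young mice were 24 weeks old and 3 were pooled, with the strain given as C57BL/7J and no diet given. Aged control and aged EPA muscle each came from 6 C57BL/6J mice of 87 weeks, which had received for 12 weeks, from week 75, a diet lacking the omega-3 fatty acid EPA (eicosapentaenoic acid) or a diet with 1 wt% EPA. The labels name no transgene, and age, strain label and the number of pooled mice differ together between the young library and the others, so that these cannot be told apart.

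Desaturases place double bonds in fatty acyl chains and draw their electrons from NADH through cytochrome b5, while elongases carry out the first step of the cycle that lengthens a chain. Scd enzymes make oleate and palmitoleate from saturated chains, and FADS2, ELOVL5 and FADS1 act in turn on the essential plant fatty acids to yield arachidonic acid and EPA, so that the fed EPA is a product of this route. In liver, dietary polyunsaturated fatty acids are known to lower the transcription of Scd1, Fads1, Fads2 and Elovl6, partly through the factor SREBP-1.

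On the scale of CPM + 1 the largest difference among the 10 genes was that of Scd1, with log2 changes from young of 0.54 in aged control and 0.63 in aged EPA. As counts over the library totals, Scd1 was 1.46 and 1.64 times as abundant as in young. The elongase genes Elovl1 and Elovl5 lay lower in both aged libraries than in young, and Fads2 was higher in both. From aged control to aged EPA the 2 elongase genes differed less, with ratios of 0.886 (0.780 to 1.005) for Elovl1 and 0.907 (0.825 to 0.996) for Elovl5. That interval held 1 for Elovl1 and excluded it for Elovl5, as it did for 46.3% of all genes. Fads1, Fads6 and the scarce Elovl7 had counting intervals that held a ratio of 1 in all 3 comparisons. With 1 library per group no test between groups was possible. Intervals are exact 95% Clopper-Pearson intervals of a ratio of counts, each count taken over its library's own total, and cover counting error only. They do not cover differences between mice or between library preparations.

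The libraries held between 55969822 and 57622886 counts, and 3 counts, taken as the floor of detection, correspond to between 0.0521 and 0.0536 CPM (counts scaled to a fixed library total). The fibre markers were present in every library, with Acta1, the skeletal actin, at 31000.6 to 36147.8 CPM. Marker transcripts of other cell types were also present, and none of these lists had a gene at 0 in all 3 libraries. Unless said otherwise, 3 values in a row refer to young, aged control and aged EPA muscle in this order. Adipocyte markers summed to 819, 578 and 650 CPM, endothelial markers to 590, 485 and 448 CPM, and red blood cell markers to 1508, 561 and 565 CPM. Schwann cell markers summed to 194, 194 and 214 CPM, markers of fibro-adipogenic progenitors to 1457, 1325 and 1271 CPM, and macrophage markers to 290, 300 and 309 CPM.

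Scd1 and Scd2 encode stearoyl-CoA desaturases, which insert the double bond that turns stearate into oleate. Scd1 (ENSMUSG00000037071, chr19:44394455-44407879 on GRCm38, minus strand) stood at 155 CPM in young muscle, at 227 CPM on the aged control diet and at 242 CPM on the EPA diet. The young library was the low one and the aged libraries lay close together. The counts behind these values were 8712, 12811 and 13951. The ratio of aged control to young was 1.46 (95% interval 1.43 to 1.51), that of aged EPA to young was 1.64 (1.60 to 1.69) and that of aged EPA to aged control was 1.12 (1.09 to 1.15). The deposited CPM gave smaller differences for aged EPA, with log2 changes of CPM + 1 of 0.63 from young and 0.09 from aged control, both under the count intervals (0.68 to 0.75 and 0.13 to 0.20 as log2).

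Scd2 (ENSMUSG00000025203, chr19:44293674-44306864, plus strand), the form that is prominent in brain, stood at 34.5, 39.9 and 38.95 CPM. Its ratios to young were 1.12 (1.06 to 1.19) in aged control and 1.14 (1.07 to 1.21) in aged EPA. Between the aged libraries the ratio was 1.01 (0.956 to 1.08), and its sign depended on the total used, since the deposited CPM were lower and the counts over the library total higher in aged EPA. Scd1 stood farther above Scd2 in the aged libraries. The ratio of Scd1 to Scd2 counts was 4.40 (4.19 to 4.62) in young, 5.73 (5.48 to 6.00) in aged control and 6.33 (6.05 to 6.63) in aged EPA.

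Scd1 and Scd2 lie in a cluster of 4 like genes on chromosome 19, so some reads could be given to the wrong copy. Their coding sequences were 90.3% identical over 1065 aligned bases. The longest stretch that Scd1 and Scd2 share without a difference runs from base 523 to base 669 of the Scd1 coding sequence, 147 bases, and is shown because reads inside it cannot be told apart. The first 35 bases, in capitals, are also shared with Scd3 and Scd4 (transcripts of GENCODE M21, GRCm38).
Scd1 and Scd2: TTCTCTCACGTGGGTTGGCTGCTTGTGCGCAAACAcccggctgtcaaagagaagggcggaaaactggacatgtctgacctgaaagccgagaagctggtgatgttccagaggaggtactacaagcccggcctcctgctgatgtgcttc
Such stretches were a small part of the transcripts. Of all windows of 50 bases, 4.56% in Scd1 and 3.75% in Scd2 also occurred in another Scd gene, and of windows of 100 bases 2.56% and 0.879% did. Scd3 had 6, 0 and 6 counts and Scd4 had 0, 12 and 0 counts in young, aged control and aged EPA, so that these neighbours were near the limit of detection.

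**Figure D1:**
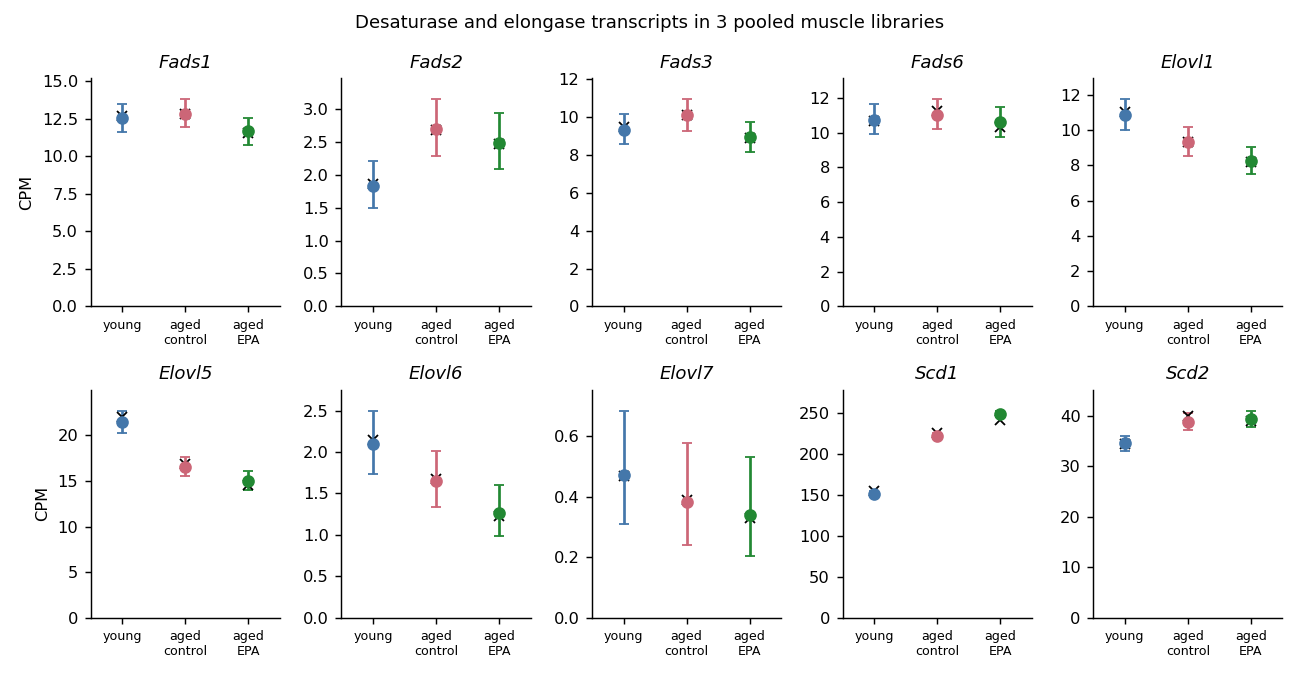
Level of each gene in CPM (y axis, linear from 0, own scale per gene) in each of the 3 libraries; points are counts over the library total with their 95% counting interval and crosses are the deposited CPM. Scd1 goes from 155 to 242 deposited CPM, and Elovl5 from 22.0 to 14.6 CPM.

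Adipocytes are rich in Scd1, so their markers were set beside it. Of 12 adipocyte markers 10 reached a mean of 1 CPM. In aged control 9 of these 10 lay below young (median log2 change of CPM + 1 of -0.46), and Scd1 lay above. In aged EPA 9 of 10 lay above aged control (median 0.19). Of all genes 52.4% lay below young in aged control, and 55.8% lay below aged control in aged EPA. Plin4, a lipid droplet coat protein gene, stood at 371, 280.2 and 308 CPM, and Fabp4, a fatty acid carrier gene, at 260.0, 173 and 178 CPM. The sum of adipocyte markers, most of it Plin4 and Fabp4, was lowest in aged control. Adipoq stood at 16.8, 15.9 and 18.4 CPM. Lep, the 1 marker that was higher in aged control than in young, stood at 2.46, 5.37 and 5.62 CPM. Adipoq and Lep were added after their values were seen. Schwann cells make desaturated lipids for myelin. Of their 10 markers 3 were higher and 7 lower in aged control than in young (median -0.15), and 9 were higher in aged EPA than in aged control (median 0.20). Pmp22, a myelin protein gene, stood at 42.3, 64.6 and 69.0 CPM. The part of these cells in the Scd1 and Scd2 differences was not tested, and in bulk muscle fewer cells of a type and less RNA per cell cannot be told apart.

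FADS1 and FADS2 are desaturases that act between an existing double bond and the carboxyl end of the chain, and Fads3 and Fads6 are their relatives. Fads1, Fads2 and Fads3 lie in a cluster on chromosome 19. Fads2 (ENSMUSG00000024665, chr19:10062765-10101746, minus strand), the enzyme of the first and rate-limiting step toward arachidonic acid and EPA, stood at 1.86, 2.69 and 2.46 CPM, from 105, 155 and 139 counts. Both aged libraries were above the young one. The ratio to young was 1.47 (1.14 to 1.90) in aged control and 1.36 (1.05 to 1.77) in aged EPA. Between the aged libraries it was 0.923 (0.729 to 1.17), so that no difference with diet was detectable at this depth.

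Fads1 (ENSMUSG00000010663, chr19:10182888-10196877, plus strand), whose product makes the last double bond of arachidonic acid and EPA, stood at 12.7, 12.8 and 11.6 CPM. The 3 libraries lay close together. Its ratio was 1.02 (0.924 to 1.14) in aged control against young, 0.907 (0.815 to 1.01) in aged EPA against aged control and 0.930 (0.835 to 1.04) in aged EPA against young. The ratio of Fads1 to Fads2 counts was 6.85 (5.57 to 8.49) in young, 4.77 (4.01 to 5.71) in aged control and 4.69 (3.90 to 5.67) in aged EPA. The interval of aged control overlaps that of young in a narrow range, and those of the aged libraries cover each other.

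Fads3 (ENSMUSG00000024664, chr19:10041569-10060110, plus strand), which encodes a desaturase of sphingoid bases, stood at 9.50, 10.1 and 8.92 CPM. It was lowest in aged EPA, with a ratio of 0.884 (0.783 to 0.998) to aged control and of 0.956 (0.845 to 1.08) to young, and the ratio of aged control to young was 1.08 (0.960 to 1.22). Fads6 (ENSMUSG00000044788, chr11:115279622-115297663, minus strand), a family member with no settled substrate, stood at 10.7, 11.3 and 10.3 CPM. Its ratio was 1.03 (0.917 to 1.15) in aged control against young, 0.962 (0.858 to 1.08) in aged EPA against aged control and 0.987 (0.880 to 1.11) in aged EPA against young. The Fads coding sequences were less alike than those of Scd1 and Scd2, at 67.0% identity for Fads1 and Fads2 and 69.8% for Fads2 and Fads3, and at most 0.152% of 50-base windows of a Fads transcript occurred in another Fads gene.

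All 4 elongase genes were highest in young, intermediate in aged control and lowest in aged EPA by CPM. Elovl5 (ENSMUSG00000032349, chr9:77917364-77984519, plus strand) encodes the elongase of polyunsaturated chains, which also lengthens EPA itself. It stood at 22.0, 16.9 and 14.6 CPM, from 1233, 954 and 840 counts. The ratio to young was 0.771 (0.707 to 0.839) in aged control and 0.699 (0.639 to 0.763) in aged EPA, and aged EPA stood at 0.907 (0.825 to 0.996) of aged control.

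Elovl1 (ENSMUSG00000006390, chr4:118428093-118432953, plus strand), which makes very long saturated chains for sphingolipids, stood at 11.0, 9.31 and 8.18 CPM, from 623, 537 and 462 counts. Its ratio to young was 0.858 (0.763 to 0.965) in aged control and 0.760 (0.673 to 0.859) in aged EPA. The ratio of aged EPA to aged control was 0.886 (0.780 to 1.005), an interval that just reaches 1. Exons of Elovl1 overlap those of Cdc20 on the other strand by 53 bases, 1.94% of its exon length. Whether the counting used strand is not given in the sources used here, and Cdc20 stood at 0.520, 0.531 and 0.313 CPM, well under Elovl1.

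Elovl6 (ENSMUSG00000041220, chr3:129532355-129638495, plus strand), which lengthens palmitate to stearate and so supplies Scd1, stood at 2.14, 1.68 and 1.23 CPM. Its counts were 120, 95 and 71, and the young library was apart from aged EPA with a ratio of 0.607 (0.446 to 0.820). The ratios of aged control to young, 0.788 (0.596 to 1.04), and of aged EPA to aged control, 0.769 (0.558 to 1.06), had intervals that held 1. Elovl7 (ENSMUSG00000021696, chr13:108214404-108285683, plus strand), an elongase of saturated long chains, stood at 0.468, 0.390 and 0.331 CPM from 27, 22 and 19 counts. No difference in Elovl7 was detectable at this depth, with ratios of 0.811 (0.440 to 1.48), 0.889 (0.455 to 1.72) and 0.722 (0.379 to 1.35) in aged control against young, aged EPA against aged control and aged EPA against young.

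Endothelial and red blood cell markers were, like the elongases, lower in aged control than in young. Of 10 endothelial markers 9 were lower in aged control than in young (median log2 change -0.34), 7 were lower with EPA than on the control diet (median -0.04) and 10 were lower in aged EPA than in young (median -0.35). Cdh5, the cadherin of endothelial junctions, stood at 128, 99.2 and 93.2 CPM and Flt1, a VEGF receptor gene, at 116, 110 and 82.2 CPM. All 5 red blood cell markers were lower in aged control than in young (median -1.41), and markers of fibro-adipogenic progenitors were lower in 5 of 8 (median -0.19). So were 9 of 10 adipocyte markers (median -0.46) and 7 of 10 Schwann cell markers (median -0.15). The other 2 lists went the other way, with 5 of 8 macrophage markers higher (median 0.07) and 6 of 10 fibre markers higher (median 0.09). In aged EPA against aged control, unlike the elongases, 4 of 5 red blood cell markers were higher (median 0.04). Of the progenitor markers 6 of 8 were lower there (median -0.03, as for all genes). None of these markers was at 0 in all libraries, and their part in the elongase differences was not tested.

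The windows of 250 bases before the RefSeq start sites of Elovl5 and Elovl1 (GRCm38.p6, plus strand) are shown because these genes differed in the same direction with the narrowest intervals among the elongases. Capitals mark matches, on either strand, to the E-box CACGTG, the CCAAT box, the GC box GGGCGG, the nuclear receptor half-site AGGTCA or the sterol element TCACCCCAC, motifs of factors known to act on lipid genes or on promoters in general. Elovl5 lies at chr9:77917115-77917364 and the first of the Elovl1 windows at chr4:118427843-118428092.
Elovl5: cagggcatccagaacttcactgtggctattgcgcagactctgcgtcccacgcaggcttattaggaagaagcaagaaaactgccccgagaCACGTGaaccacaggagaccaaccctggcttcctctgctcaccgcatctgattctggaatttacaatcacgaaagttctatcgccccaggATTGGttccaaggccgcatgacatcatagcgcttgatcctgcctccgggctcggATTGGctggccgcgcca
Elovl1: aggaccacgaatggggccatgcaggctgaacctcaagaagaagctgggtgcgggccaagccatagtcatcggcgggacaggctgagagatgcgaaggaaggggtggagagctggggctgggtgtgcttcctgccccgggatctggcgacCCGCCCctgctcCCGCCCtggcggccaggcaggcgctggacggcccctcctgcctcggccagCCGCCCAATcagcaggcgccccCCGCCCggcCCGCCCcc
The Elovl5 window holds an E-box from -161 to -156 and a CCAAT box in reverse at -71 to -67 and again at -17 to -13, counted from the start site. The Elovl1 window holds GC boxes in reverse starting at -101, -89, -39, -17 and -8, and a CCAAT box from -35 to -31 that overlaps the GC box at -39. These windows thus share the CCAAT box and no other searched motif. Windows were matched for 7 of the 10 genes and not for Fads1, Scd1 and Scd2. Among those 7, the E-box was found in 1 (Elovl5), the CCAAT box in 3, the GC box in 5, the half-site in 3 and the sterol element in 0. Counted by gene in the same way, a match in any window was found in 6.86% of the 27025 genes with RefSeq windows for the E-box, 37.5% for the CCAAT box, 35.4% for the GC box, 15.8% for the half-site and 0.555% for the sterol element. Of the 32851 windows themselves, 6.02%, 33.8%, 32.7%, 14.0% and 0.496% held a match. Elovl1 has a further window, which alone holds its half-site.

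**Figure D2:**
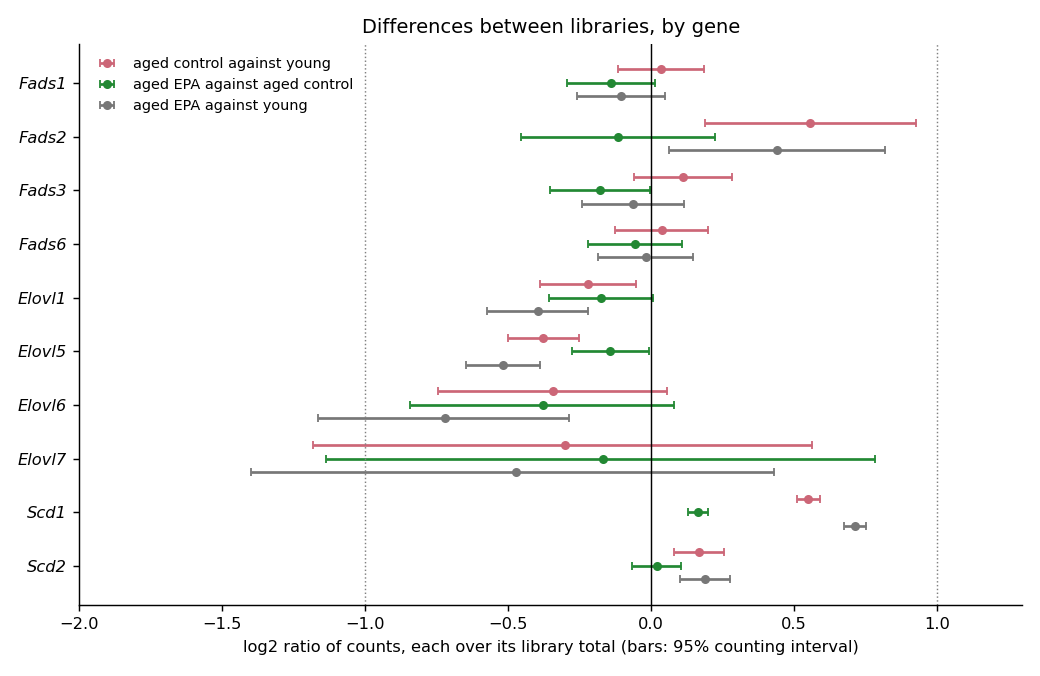
Log2 ratio of counts between libraries, each count over its library total (x axis), for the 10 genes (y axis), with 95% counting intervals as bars and dotted lines at 2-fold. Scd1 lies to the right of 0 in all 3 comparisons (count ratios 1.46, 1.12 and 1.64) and Elovl5 to the left (0.771, 0.907 and 0.699).

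Levels of different genes were compared per kb of exon. Scd1 was the most abundant in every library, at 31.0 CPM per kb in young, 45.4 in aged control and 50.95 in aged EPA. It was followed by Scd2 (6.32, 7.10 and 7.20 CPM per kb), Elovl5 (6.10, 4.70 and 4.26) and Elovl1 (3.98, 3.42 and 3.03). Fads1 (2.60, 2.67 and 2.42), Fads3 (2.46, 2.66 and 2.36) and Fads6 (1.62, 1.66 and 1.60) came next. Fads2 (0.555, 0.816 and 0.754), Elovl6 (0.325, 0.256 and 0.197) and Elovl7 (0.117, 0.0951 and 0.0846) were the lowest. The order was the same in the 3 libraries. Neighbours in it that did not differ beyond counting error were Fads1 and Fads3 in every library, and Scd2 and Elovl5 in young (ratio per kb 1.04, 0.964 to 1.11) but not in aged control (1.51, 1.40 to 1.63) or aged EPA (1.69, 1.56 to 1.83). With the length of a single transcript in place of all exons, Elovl5 (7.72 CPM per kb) stood above Scd2 (6.33) in young.

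**Figure D3:**
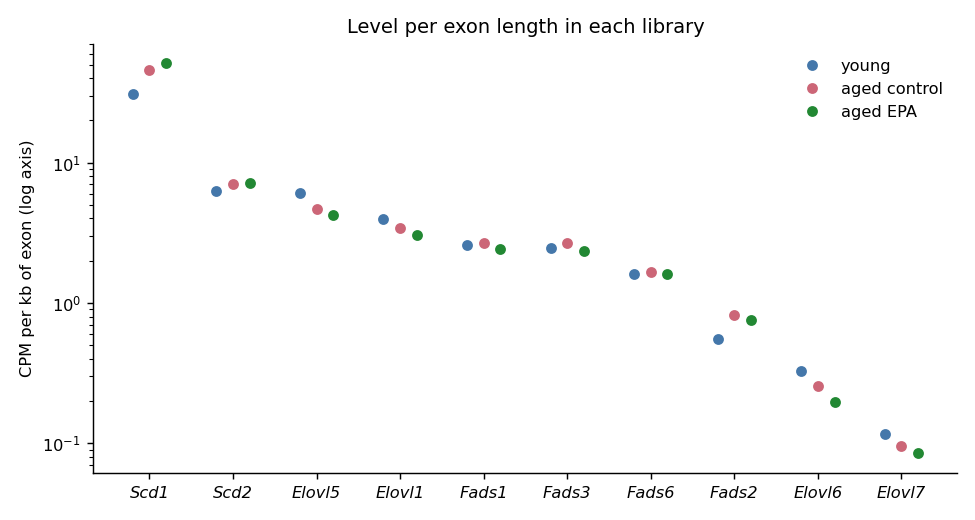
Level per kb of exon (y axis, log scale) of the 10 genes ordered by the young library, in each of the 3 libraries. Scd1 stands apart at 31.0 to 50.95 CPM per kb, and Elovl7 is lowest at 0.0846 to 0.117.

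Scd1 made up a larger share of the family in the aged libraries. It held 59.4% (58.6 to 60.2) of the counts of the 10 genes in young, 68.3% (67.6 to 68.9) in aged control and 71.8% (71.2 to 72.4) in aged EPA. Summed over the 10 genes there were 256, 326 and 347 CPM over the library totals, and without Scd1 104, 103 and 97.9 CPM. The 4 elongase genes summed to 34.9, 27.9 and 24.9 CPM and the 4 Fads genes to 34.5, 36.7 and 33.7 CPM. The ratio of Scd1 to Elovl6 counts, the enzymes that use stearate and make it, was 72.6 (60.6 to 87.7) in young, 135 (110 to 167) in aged control and 196 (156 to 252) in aged EPA. The ratio of Fads2 to Elovl5 counts, enzymes that act in sequence, was 0.0852 (0.0691 to 0.104) in young, 0.162 (0.136 to 0.193) in aged control and 0.165 (0.137 to 0.198) in aged EPA. These ratios are between genes of a single library and need no library total.

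Set against the other genes, most of these differences were small. Of the 10 genes 9 had a mean of at least 1 CPM, as did 12966 genes in all, and Elovl7 did not. In aged control against young, 0 of the 9 lay at least 2-fold apart (1.74% of all genes) and 0 at least 1.5-fold (5.24%), both on the scale of CPM + 1. The counting interval excluded a ratio of 1 for 5 of 9 (Fads2, Elovl1, Elovl5, Scd1 and Scd2), a share near the 55.2% of all genes, and 3 of 9 were lower (52.4%). The median log2 change of the 9 was 0.07, beside -0.01 for all genes. Scd1 (log2 change 0.54) was among the 3.13% of genes that lay as far or farther in its direction, Fads2 (0.37) among 7.13% and Elovl5 (-0.36) among 8.21%.

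In aged EPA against aged control, 0 of 9 lay at least 2-fold apart (1.33% of all genes) and 0 at least 1.5-fold (3.6%). The interval excluded 1 for 3 of 9, Fads3, Elovl5 and Scd1 (46.3%). By deposited CPM 8 of 9 were lower in aged EPA, all but Scd1, where 55.8% of all genes were. Over library totals it was 7 of 9, without Scd2, and 47.0% of all genes. The median log2 change was -0.14, beside -0.03 for all genes, whose middle range from the lower to the upper quartile ran from -0.15 to 0.09. Elovl6 (-0.26) lay among the 10.8% of genes at least as far in its direction and Elovl5 (-0.20) among 17.4%. Scd1 (0.09) was among 24.5%. These shares are by deposited CPM. Over library totals the log2 changes were -0.22 for Elovl6, -0.13 for Elovl5 and 0.16 for Scd1, beside a median of 0.01 for all genes.

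In aged EPA against young, 0 of 9 lay at least 2-fold apart (1.6% of all genes) and 1 at least 1.5-fold, Scd1 (5.36%). Elovl6, whose count ratio of 0.607 has no added 1, stayed inside 1.5-fold on the scale of CPM + 1. The interval excluded 1 for 6 of 9 (54.3%), which were Fads2, Elovl1, Elovl5, Elovl6, Scd1 and Scd2, and 6 of 9 were lower (56.7%). The median was -0.08, beside -0.04 for all genes. Scd1 (0.63) was among the 1.91% of genes as far or farther in its direction, Elovl5 (-0.56) among 3.22% and Elovl6 (-0.49) among 4.60%, by deposited CPM. Over library totals their log2 changes were 0.71, -0.49 and -0.45, beside a median of -0.01 for all genes. This comparison shares its libraries with the other two, so its values are no further evidence.

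**Figure D4:**
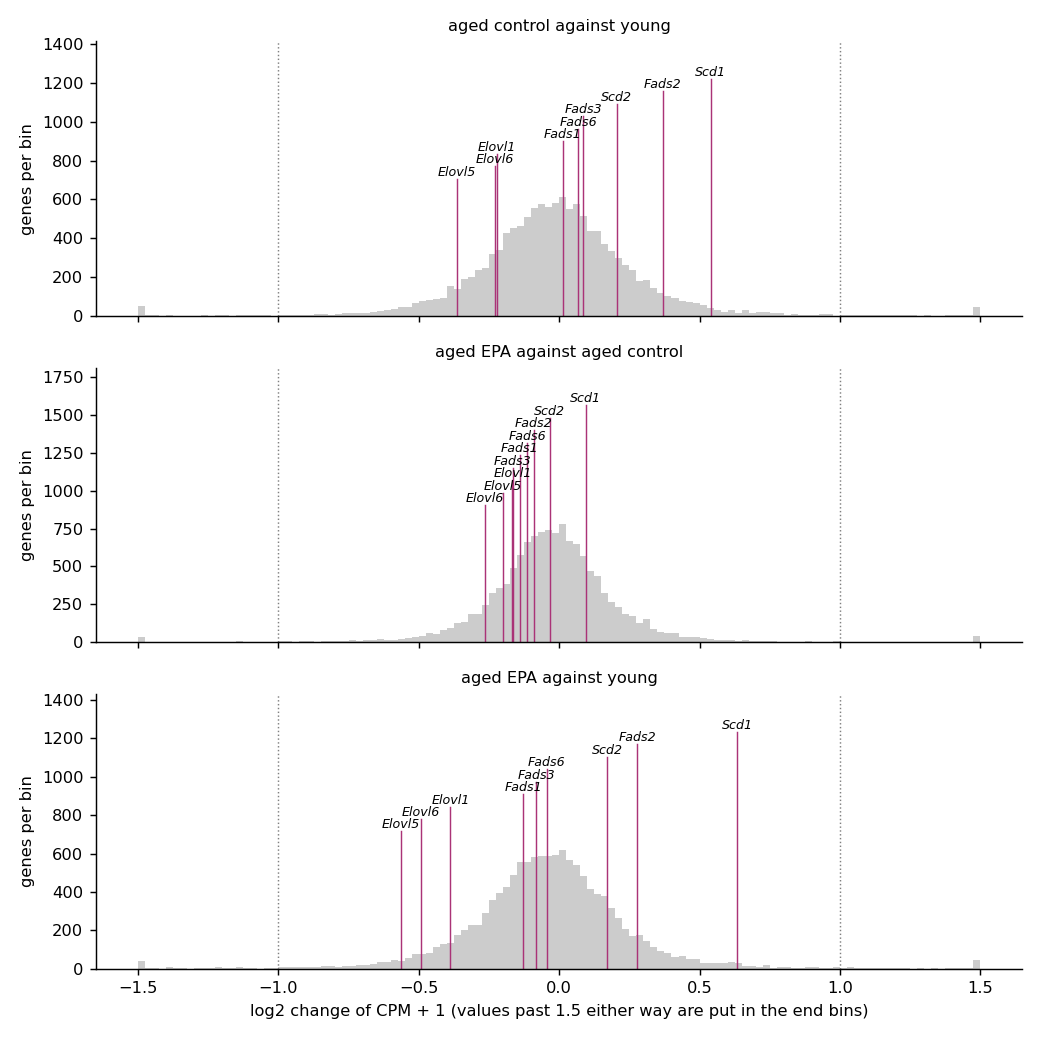
Distribution of the log2 change of CPM + 1 over 12966 genes (grey, y axis in genes per bin) in the 3 comparisons, with a line and name for each of the 9 desaturase and elongase genes compared and dotted lines at 2-fold. All 9 lie inside the dotted lines, with Scd1 farthest to the right at 0.54, 0.09 and 0.63.

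The genes whose pattern over the 3 libraries was nearest to that of Scd1, among 9109 genes whose mean reached 5 CPM, were Itsn1, Tor1b and Aldh1a1. Itsn1 stood at 52.7, 77.0 and 82.0 CPM, Tor1b at 8.30, 12.6 and 13.5 CPM and Aldh1a1, a retinaldehyde dehydrogenase gene, at 86.6, 124 and 135 CPM. Their distances from Scd1 in the pair of log2 changes from young were 0.0069, 0.0094 and 0.0215.

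The other 7 desaturases and elongases are given in full, although 6 of them were under a mean of 1 CPM. Degs1, which encodes the desaturase of ceramide synthesis, stood at 27.6, 29.2 and 28.1 CPM, within 1.5-fold everywhere. Degs2 had 49, 20 and 50 counts, a ratio of 0.406 (0.229 to 0.697) in aged control against young and of 2.57 (1.505 to 4.56) in aged EPA against aged control. Its exons overlap those of Evl on the other strand by 278 bases, 10.8% of their length, and Evl stood at 6.15, 5.08 and 3.85 CPM. Elovl2, which extends chains beyond EPA toward docosahexaenoic acid, had 12, 0 and 0 counts, Elovl3 had 0 in each library and Elovl4 had 22, 15 and 12.

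The enzymes that complete the elongation cycle, the reductases and dehydratases after the condensing step, were compared for 6 of 7. In aged control against young 1 of 6 was higher and 5 were lower (median log2 change -0.13, beside -0.01 for all genes). Tecr, the last reductase of the cycle, stood at 328, 411 and 409 CPM. The dehydratase genes Hacd3, Hacd2 and Hacd1 went the other way in aged control. Hacd3 stood at 15.1, 11.8 and 13.1 CPM, Hacd2 at 7.87, 6.60 and 5.76 CPM and Hacd1 at 30.7, 27.4 and 24.9 CPM. Hacd4, the remaining dehydratase gene, added after its values were seen, hardly differed at 4.62, 4.58 and 4.59 CPM. In aged EPA against aged control 2 were higher and 4 lower (median -0.01, beside -0.03 for all genes). For this list and those that follow, 52.4% of all genes were lower in aged control than in young. In aged EPA against aged control 55.8% were lower. Cytochrome b5 and its reductases, which pass electrons to the desaturases, were split evenly, 3 of 6 higher and 3 lower in each comparison (median 0.01 in each). Cyb5r1 stood at 59.9, 70.3 and 71.9 CPM and Cyb5a at 26.5, 23.3 and 22.0 CPM. Cyb5r4 stood at 29.9, 31.0 and 34.8 CPM, and Cyb5r3 at 49.0, 52.4 and 50.97 CPM.

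Of 15 genes for transcription factors and SREBP processing, 7 were higher and 8 lower in aged control than in young (median 0.00), and between aged EPA and aged control 9 were higher and 6 lower with EPA (median 0.01). Srebf1, which encodes SREBP-1, stood at 40.0, 41.7 and 42.0 CPM and was added, for its known role at these genes, after its values were seen. In each of these comparisons 2 of 15 differed at least 1.5-fold, where 5.24% and 3.6% of all genes did, and both had the aged control library apart from the others. Ppara, the fatty acid receptor gene, stood at 6.64, 11.1 and 7.00 CPM, and Mlx, the partner of the carbohydrate-responsive factor ChREBP, at 12.5, 5.76 and 9.57 CPM. Nr1h3, which encodes the sterol receptor LXR alpha, a known activator of Scd1, stood at 16.8, 11.8 and 15.0 CPM, lowest in aged control, and Pparg at 6.71, 6.54 and 4.93 CPM.

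Of 8 genes of fatty acid synthesis, which supplies palmitate to these enzymes, 6 were higher and 2 lower in aged control than in young (median 0.10), and between aged EPA and aged control 1 was higher and 7 lower with EPA (median -0.13). Of all genes 55.8% were lower with EPA by deposited CPM (median -0.03), and 47.0% over library totals (median 0.01). Fasn, the fatty acid synthase, stood at 39.6, 42.4 and 32.3 CPM with a ratio of 0.802 (0.754 to 0.852) in aged EPA against aged control. Acly, which makes cytosolic acetyl-CoA, stood at 18.9, 24.3 and 20.4 CPM. Thrsp stood at 19.2, 15.1 and 13.5 CPM and Slc25a1, the citrate carrier gene, at 7.88, 5.54 and 7.58 CPM. Of the aged libraries, the one with EPA thus had more Scd1 and less Fasn.

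Among 8 genes of the peroxisomal steps that shorten long polyunsaturated chains, 4 were higher and 4 lower in aged control than in young (median -0.01), and 6 were higher in aged EPA than in aged control (median 0.02). Acot8, a peroxisomal thioesterase gene, was low in aged control alone, at 5.48, 3.14 and 5.71 CPM. Scp2 stood at 66.8, 77.0 and 79.5 CPM, Abcd2 at 48.0, 47.0 and 42.3 CPM and Abcd3 at 57.2, 55.5 and 51.7 CPM. Of the genes that place polyunsaturated chains in phospholipids, 7 of 8 were compared, 4 of them higher and 3 lower in either of the first 2 comparisons (medians 0.04 and 0.06). Lpcat3, an acyltransferase gene with a preference for such chains, stood at 19.1, 14.3 and 15.4 CPM. Lclat1 stood at 26.9, 30.4 and 25.6 CPM, Acsl6 at 34.3, 38.1 and 40.6 CPM and Mboat7, the arachidonate transferase gene of phosphatidylinositol, at 12.8, 14.6 and 12.3 CPM. No gene of these lists reached 2-fold on the scale of CPM + 1 in any of the 3 comparisons, beside 1.74%, 1.33% and 1.6% of all genes. Mlx stood at -0.99 in aged control against young on that scale. Its count ratio of 0.464 (0.406 to 0.530), which has no added 1, was past 2-fold, with an interval that held 2-fold.

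**Figure D5:**
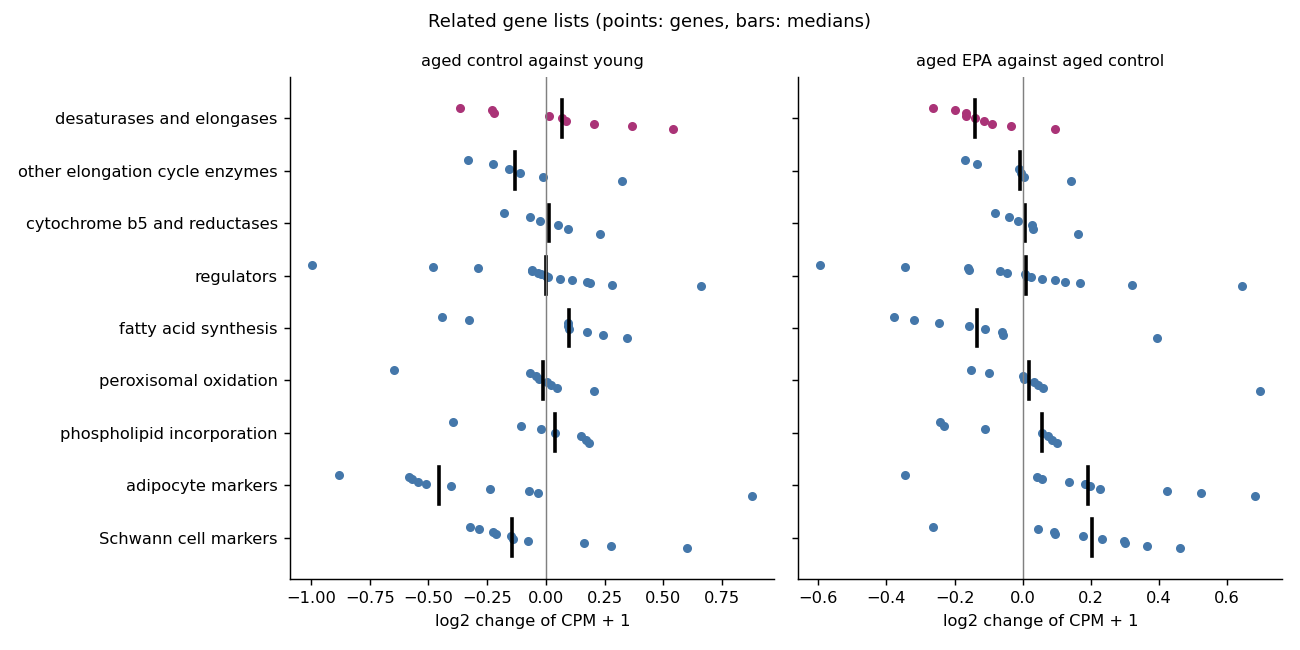
Log2 change of CPM + 1 (x axis) of each compared gene (points) and the median (bars) for the desaturases and elongases, 6 related lists and 2 marker lists (y axis), in aged control against young and aged EPA against aged control. Medians of the desaturases and elongases are 0.07 and -0.14, and those of the adipocyte markers -0.46 and 0.19.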

How the data were processed

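The deposited CPM were calculated by the authors; per the submitters' processing notes HISAT2 2.1.0, StringTie 1.3.4d, R 3.5.0 and GRCm38 (mm10) were used. The counting step, its use of strand and the annotation are not given in the sources used here. Multiplied by 1 of 5 divisors, which differed between genes and tables, every deposited CPM became a whole count (tolerance 1e-06). Deposited CPM lay up to 2.98% from counts over the library's own total, which moved a log2 change by -0.08 to 0.04. These whole numbers may come from transcript coverage and not from counted reads, and the intervals treat them as reads.

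Genes whose mean reached 1 CPM were compared by the log2 ratio of CPM + 1, with thresholds of 2-fold and 1.5-fold, and count ratios have exact 95% Clopper-Pearson intervals. Scripts (Python 3.11.15, pandas 2.3.3, scipy 1.17.1, Biopython 1.88) were tested on simulated data. All 10 genes are named, and up to 4 genes per related list by the largest change in any comparison and 2 per marker list by the highest mean, not each of them printed. For Scd1, farthest from 0 on that scale, the 3 nearest genes at a mean of at least 5 CPM with a descriptive symbol are named. The genes and lists were chosen with earlier results of these data known. Genes sharing a symbol (63 table entries) were summed. Alternatives were pseudocounts of 0.1 and 5, no filter or a mean of at least 5 CPM, median-of-ratios and TMM scaling, library totals, a total leaving out mitochondrial and the 20 most abundant genes, only the highest entry of a symbol, and 1.5-fold. Protein sequences were not used here. Promoters are from RefSeq and positions from GENCODE M21.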

Additional observations from a re-analysis of the deposited data

How the results depend on the processing

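Under 11 alternatives 291 log2 changes of the desaturase and elongase genes were recomputed. The filters, the highest entry of a symbol and 1.5-fold leave the log2 change of these genes as it is. Agreement under those alternatives was therefore fixed in advance. With them included, 285 of the 291 moved by no more than the distance from the gene's count ratio to the ends of its counting interval. Of the changes whose interval excluded 1, 0 reversed. The other 6 were all of Scd1, whose reported changes of 0.09 and 0.63 lay below the count intervals. In aged EPA against aged control its log2 change was 0.16 over library totals and 0.15 for counts with TMM, an alternative chosen after seeing the data. In aged EPA against young it was 0.68 by median of ratios, 0.67 by TMM, 0.71 over library totals and 0.72 for counts with TMM. The number of genes past the fold was 0 in all 3 comparisons except that at 1.5-fold it was 1 (Scd1) in aged EPA against young. A sign differed in 3 cases, all near 0. Fads1 in aged control against young stood at -0.00 without mitochondrial and the 20 most abundant genes, and Scd2 in aged EPA against aged control at 0.02 over library totals and 0.01 for counts with TMM. Exon length per transcript, also chosen after seeing the data, changed only the order of Scd2 and Elovl5 in young. Depth limited Elovl7, with at most 27 counts, and Elovl6 and Fads2, which dropped out at a mean of at least 5 CPM. No paired analysis was possible because each group is 1 library, and for the same reason no library could be left out.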
